A study of Rattus norvegicus with 12 samples.

Results

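Ctsw, Ribc2, Birc7, Klk4, Rdh16, Prdm1, Kcnh6, Anxa10 and Srpx2 are 9 of the 24660 genes in the count table of this study. They were chosen by their large proportional rises in cells given TGF-beta1, so the difference between TGF-beta1 and control cells defines them and is given here as a description. The difference between cells given different extracellular vesicles (EVs) does not define them. Whether a floor on the mean level over all libraries also entered the choice is not known. RNA was sequenced from NRK-52E cells, an established rat line of kidney tubular epithelial cells labelled wild type (WT), in 12 libraries, 3 in each of 4 groups. Control cells carry no named agent in the labels. TGF-beta1 cells received TGF-beta1 for 24 h, at a labelled 10 µg/ml, where ng/ml is the customary unit. 2D-EV cells received the same TGF-beta1 and afterwards EVs made in the conventional way (2D-EVs) for 48 h more, at 500000000 particles/ml. 3D-EV cells received EVs of an efficiently producing method (3D-EVs) on the same schedule. The sources used here do not give the cells that made the EVs, the time at which the other groups were collected, or whether TGF-beta1 stayed on during the EV treatment. EVs, elapsed time and removal of TGF-beta1 therefore cannot be told apart where EV cells are compared with TGF-beta1 cells.

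TGF-beta1 is a secreted cytokine that signals through receptor kinases to the SMAD transcription factors, which act with partners such as AP-1 at DNA. In tubular epithelial cells it is known for raising matrix, cytoskeletal and protease inhibitor genes, the programme studied as a model of renal fibrosis. The 9 genes are no single pathway. They encode a papain-like cysteine protease (Ctsw), a secreted serine protease (Klk4), a retinol-oxidising enzyme (Rdh16), a transcriptional repressor (Prdm1), an inhibitor of apoptosis (Birc7), a protein of ciliary microtubules (Ribc2), a potassium channel (Kcnh6), a phospholipid-binding protein (Anxa10) and a secreted sushi-repeat protein (Srpx2).

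Library totals ran from 32888125 to 39754319 counts. Values are given as CPM, the count per 1000000 counts of the library after scaling with TMM factors, where 1 count stood for 0.0255 to 0.0305 CPM and a count of 0 would allow up to 0.0764 to 0.0916 CPM (3 counts, counting error only). A count of 1 was rarer in the table than a count of 2, so the smallest counts may not be plain numbers of reads, and limits set from counting error are approximate to that extent. All 9 genes had counts in every library, from 8 to 819, and all 9 passed the filter on low counts, as did 14184 genes in all. The labels do not say that the 3 libraries of a group came from separate cultures, so errors and p-values reflect how much these libraries vary, and that may be technical variation. As a check of the treatment, 11 of 12 well-known TGF-beta1 responders rose in TGF-beta1 cells (adjusted p under 0.05 in edgeR's quasi-likelihood test), among them Ccn2, a matricellular growth factor, at 4060 ± 63.6 against 2823 ± 53.4 CPM (SD, n = 3). Of the tubular epithelial markers, Krt8 was abundant and rose (1216 ± 41.6 against 1013 ± 6.96 CPM) and Aqp1 fell, while Epcam and Pax2 were at 0 in all 12 libraries and Krt18 and Slc34a1 held 5 and 4 counts over all 12 together. Of 10 immune markers 6 were at 0 throughout, Ptprc among them, whereas Cd14 rose (248 ± 3.78 against 185 ± 7.64 CPM). Of 5 tested fibroblast and pericyte markers Col14a1 fell, and of 3 tested endothelial markers Egfl7 rose. The part of these markers in the results was not tested.

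The 250 bases before the annotated start are shown for Prdm1, Anxa10 and Birc7. They show where motifs of TGF-beta-related factors lie in members that rose together by choice. Sequences come from RefSeq (build GRCr8), whose promoter table matched 6 of the 9 genes by symbol. Of these 6 windows, 3 lay wholly before the gene record, and those 3 are printed. Capitals mark matches to the motifs searched on both strands, namely GTCTAGAC and CAGAC (long and short SMAD boxes), TGANTCA (AP-1), CACCTG (E-box) and GGAATG (TEAD). In Prdm1 an AP-1 and a short SMAD match overlap in 1 run of capitals.
Prdm1, chr20:49564089-49564338, minus strand: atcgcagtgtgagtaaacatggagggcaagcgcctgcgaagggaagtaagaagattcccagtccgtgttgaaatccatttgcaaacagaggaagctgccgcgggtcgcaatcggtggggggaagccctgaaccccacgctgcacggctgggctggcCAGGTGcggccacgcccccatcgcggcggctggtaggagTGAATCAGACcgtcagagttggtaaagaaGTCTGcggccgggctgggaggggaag
Anxa10, chr16:32504775-32505024, plus strand: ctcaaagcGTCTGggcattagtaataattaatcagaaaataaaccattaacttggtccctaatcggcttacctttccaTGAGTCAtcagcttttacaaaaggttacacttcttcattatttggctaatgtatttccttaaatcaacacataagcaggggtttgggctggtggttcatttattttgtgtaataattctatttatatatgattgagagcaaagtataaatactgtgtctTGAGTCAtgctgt
Birc7, chr3:188425142-188425391, plus strand: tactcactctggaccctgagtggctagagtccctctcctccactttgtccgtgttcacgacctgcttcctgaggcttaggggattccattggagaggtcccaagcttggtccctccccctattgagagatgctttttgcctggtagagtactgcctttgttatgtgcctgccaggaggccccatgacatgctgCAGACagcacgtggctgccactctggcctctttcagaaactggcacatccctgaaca

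CAGAC stood in 5 of the 6 windows, and in 42.9% of all 33469 promoter windows of 250 bases in the table. Of the windows not printed, those of Kcnh6 and Srpx2 lay with all 250 bases inside the gene record, and that of Ribc2 with 45. The CAGAC matches of Kcnh6 and Srpx2, and the GGAATG match of Srpx2, therefore lay within the gene record. TGANTCA stood in 2 of 6 (Prdm1 and Anxa10) against 6.34% of all windows, CACCTG in 2 of 6 (Prdm1 and Ribc2) against 15.9%, and GGAATG in 1 of 6 (Srpx2) against 12.1%. GTCTAGAC stood in 0 of 6 and in 0.173% of all. The AP-1 matches of Anxa10 began 172 and 13 bases before the start, and that of Prdm1 55 bases before it. These are letter matches only, and binding was not measured.

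The levels that chose the members are shown first, gene by gene and in every library, with the proteases at the head. Ctsw is a papain-like protease best known from cytotoxic lymphocytes. It stood at 0.341, 0.233 and 0.616 CPM in control libraries (12, 8 and 22 counts) and at 3.19, 2.44 and 3.38 CPM in TGF-beta1 libraries. With 2D-EVs the libraries gave 1.98, 2.10 and 1.77 CPM, and with 3D-EVs 1.99, 2.53 and 2.71 CPM. Every library given TGF-beta1 lay above every control library, and the 3 with 2D-EVs lay below the 3 with TGF-beta1 alone, while the 3D-EV libraries overlapped both of these groups. The fitted rise in TGF-beta1 cells was 7.48-fold (log2 fold change 2.90, SE 0.29), the largest of the 9, and it was 3.37 on the log2 scale without control replicate 3.

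Klk4, a secreted serine protease of the kallikrein family known from enamel maturation and prostate, had the fewest counts of the 9. Its control libraries stood at 0.284, 0.321 and 0.336 CPM (10, 11 and 12 counts) and its TGF-beta1 libraries at 1.70, 0.983 and 1.18 CPM. Libraries with 2D-EVs gave 1.81, 0.878 and 1.59 CPM and those with 3D-EVs 1.3, 0.883 and 1.19 CPM. The groups given TGF-beta1 overlapped one another, and all 9 of their libraries lay above the controls. Its fitted rise in TGF-beta1 cells was 4.06-fold, with the widest SE of the 9 (0.36 on the log2 scale).

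Rdh16, a short-chain dehydrogenase that oxidises retinol, was the best counted of the 9. It stood at 4.97, 5.69 and 5.40 CPM in control cells and at 21.0, 20.6 and 22.5 CPM in TGF-beta1 cells. The 2D-EV libraries gave 15.7, 19.9 and 16.8 CPM and the 3D-EV libraries 18.2, 17.3 and 18.2 CPM. All 6 EV libraries thus lay below the 3 TGF-beta1 libraries and far above the controls. The fitted rise in TGF-beta1 cells was 3.99-fold (log2 SE 0.09, the smallest of the 9). In the RefSeq order Rdh16 is followed by the pseudogene Rdh16-ps1, and reads shared with such a copy could be split by the counting, so its level is uncertain to that extent.

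Prdm1 encodes Blimp-1, a zinc finger repressor that drives the maturation of plasma cells and acts in epithelia. Control libraries stood at 0.569, 0.642 and 0.840 CPM and TGF-beta1 libraries at 3.34, 1.85 and 2.72 CPM. The values were 1.75, 2.18 and 2.59 CPM with 2D-EVs and 3.11, 2.28 and 1.82 CPM with 3D-EVs. All groups given TGF-beta1 overlapped, each spanning a wide range. The fitted rise in TGF-beta1 cells was 3.84-fold (log2 SE 0.29).

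Birc7 encodes livin, a member of the family that inhibits caspases. It stood at 1.08, 1.17 and 1.18 CPM in control cells and at 6.04, 4.69 and 4.59 CPM in TGF-beta1 cells. With 2D-EVs it stood at 4.52, 4.11 and 4.79 CPM and with 3D-EVs at 5.17, 6.38 and 3.93 CPM. The 3D-EV libraries spread over the whole range of the other groups given TGF-beta1. Its fitted rise was 4.46-fold (log2 SE 0.19).

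Ribc2 encodes a protein found inside the doublet microtubules of motile cilia. Its control values were 0.597, 0.905 and 0.812 CPM and its TGF-beta1 values 4.66, 4.47 and 3.76 CPM. Libraries with 2D-EVs stood at 3.56, 3.37 and 4.0 CPM and those with 3D-EVs at 3.90, 5.44 and 4.70 CPM. The 2D-EV and 3D-EV libraries overlapped in 1 pair of values only, the highest of the former and the lowest of the latter. The fitted rise in TGF-beta1 cells was 5.55-fold (log2 SE 0.20).

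Kcnh6 encodes a voltage-gated potassium channel of the ether-a-go-go-related group. It stood at 0.426, 0.467 and 0.812 CPM in control cells and 2.36, 1.99 and 1.59 CPM in TGF-beta1 cells. EV libraries gave 2.48, 1.87 and 2.81 CPM (2D) and 2.14, 2.82 and 3.21 CPM (3D). Both EV groups overlapped with TGF-beta1 cells, with the highest values in 3D-EV replicates 2 and 3. The fitted rise was 3.46-fold (log2 SE 0.29).

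Anxa10, a member of the annexin family, stood at 0.796, 0.350 and 0.476 CPM in control cells and 1.67, 2.36 and 1.76 CPM in TGF-beta1 cells. The EV libraries gave 1.87, 2.01 and 1.92 CPM (2D) and 2.39, 2.08 and 1.79 CPM (3D). The 2D-EV libraries lay within the range of the TGF-beta1 libraries, and the 3D-EV libraries covered nearly that whole range. The fitted rise was 3.55-fold (log2 SE 0.28).

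Srpx2, a secreted proteoglycan that binds the urokinase receptor, stood at 1.45, 0.963 and 0.840 CPM in control cells and 3.62, 3.40 and 3.46 CPM in TGF-beta1 cells. It gave 3.97, 4.05 and 3.33 CPM with 2D-EVs and 3.87, 4.61 and 4.38 CPM with 3D-EVs. All 3 libraries with 3D-EVs lay above all 3 with TGF-beta1 alone. The fitted rise in TGF-beta1 cells was 3.22-fold (log2 SE 0.19), the smallest of the 9.

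**Figure D1:**
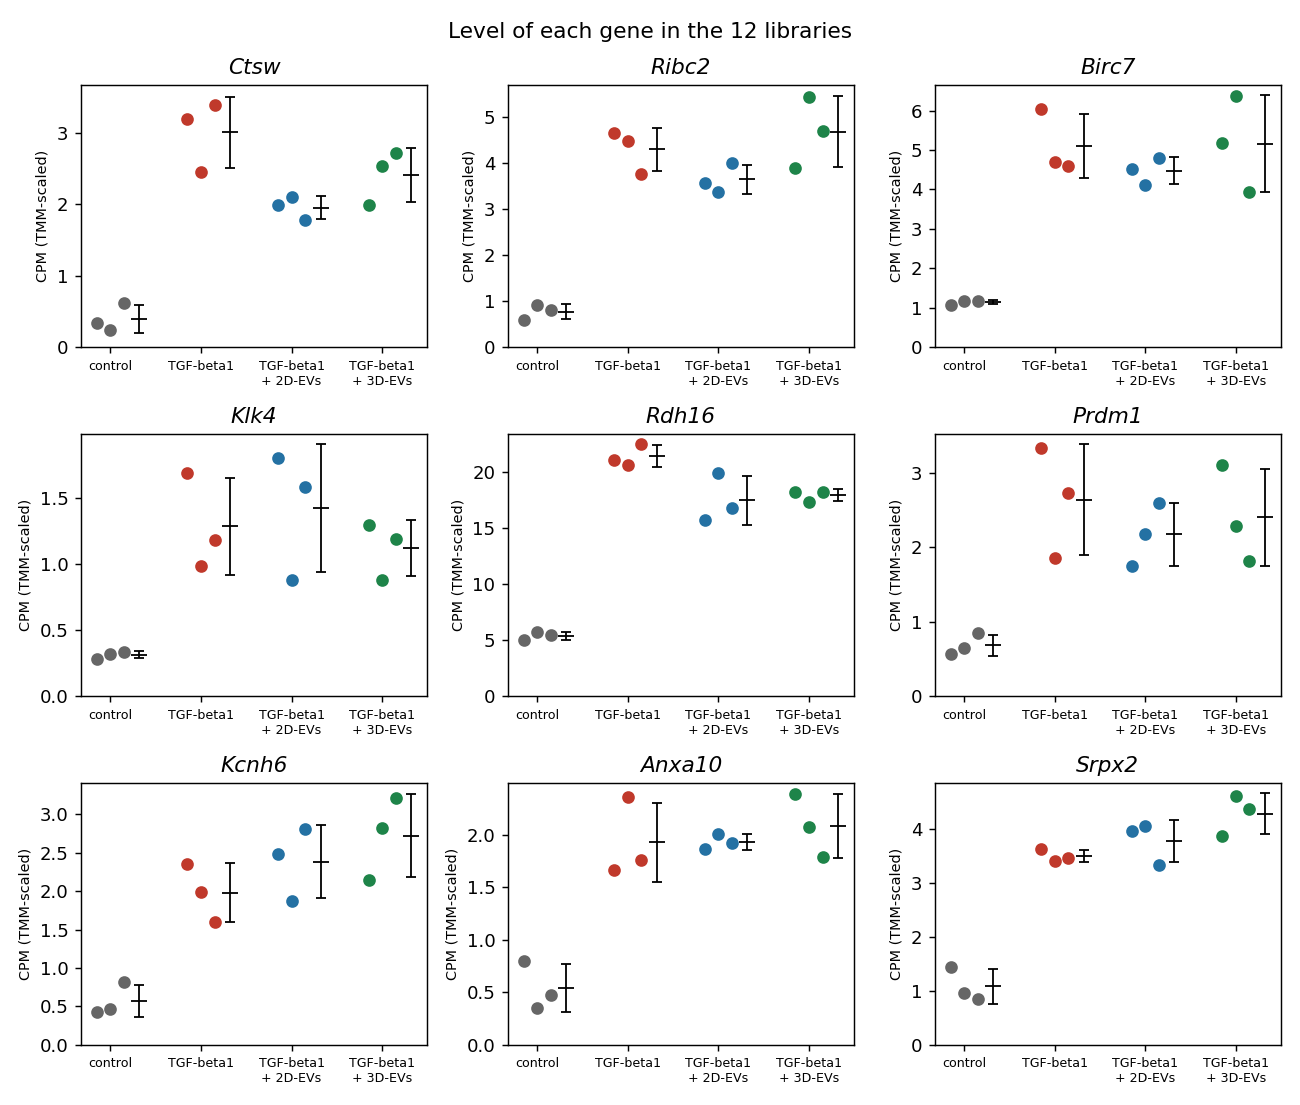
Each panel plots 1 gene, with CPM (TMM-scaled, axis from 0) against group; points are the 3 libraries in order of replicate number, and the bar beside them is the mean with the SD. Every library given TGF-beta1, with or without EVs, lies above every control library for all 9 genes.

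The order of the group means was the same at its lower end for every gene, with control cells lowest, and differed at its upper end. TGF-beta1 cells had the highest mean for Ctsw (3.01 ± 0.495 CPM), Rdh16 (21.4 ± 0.999 CPM) and Prdm1 (2.64 ± 0.744 CPM). The 3D-EV cells had the highest mean of the 4 groups for Ribc2 (4.68 ± 0.771 CPM), Birc7 (5.16 ± 1.23 CPM), Kcnh6 (2.72 ± 0.544 CPM), Anxa10 (2.09 ± 0.304 CPM) and Srpx2 (4.29 ± 0.379 CPM), and 2D-EV cells had the highest for Klk4 (1.42 ± 0.486 CPM, SD, n = 3 each). Among the 3 groups given TGF-beta1, neighbours in this order overlapped for every gene except Rdh16, whose TGF-beta1 libraries stood apart; for Ctsw and Srpx2 the ends of the order did not overlap. Within groups, the variance between libraries was 1.54 (Srpx2) to 4.41 (Prdm1) times that of counting alone (chi-square per degree of freedom, 8 degrees of freedom).

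The choice of the members has an edge. In TGF-beta1 against control cells 9 of 9 passed the threshold upward and 9 of 9 had no overlap between the groups, where 11.8% of all tested genes passed upward and 19.1% lay wholly above the controls; since this contrast chose the members, nothing is read from these counts. Among raised genes with a symbol, no overlap and at least 1 CPM in TGF-beta1 cells or over all libraries, the 9 fell within the first 14 ranks by fitted fold change. The 5 others in those ranks were Il21r, Adra2b, Elf5, Fbln2 and Nppb. Of these, Il21r and Adra2b had a mean under 1 CPM over the 12 libraries. Against TGF-beta1 cells Il21r stood at 0.487-fold with 2D-EVs and 0.547-fold with 3D-EVs, and Adra2b at 0.587-fold and 0.491-fold. In the same order Elf5 stood at 0.777-fold and 0.824-fold, Fbln2 at 0.910-fold and 0.931-fold and Nppb at 0.929-fold and 1.17-fold. None of these differences passed the threshold. Against control cells, however, each of these 5 genes passed upward with both EV preparations, with no overlap between libraries. With 2D-EVs they stood 3.18-fold (Nppb) to 4.597-fold (Elf5) above control cells. With 3D-EVs they stood 3.26-fold (Adra2b) to 4.87-fold (Elf5) above them. The control libraries used here also ranked these genes. The persistence described gene by gene below is that of the members alone. Just inside the edge stood Srpx2 (3.22-fold, 3.49 against 1.08 CPM) and just outside it Ggta1 (3.13-fold, 1.23 against 0.389 CPM) and Prss22 (3.00-fold, 6.93 against 2.31 CPM). A further 16 raised genes under 1 CPM had larger fitted rises than Srpx2, and genes listed by identifier alone were not ranked.

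By level the name "weakly expressed" held for most of them. CPM is not divided by transcript length, so it ranks counts and not molecules between genes. Between 14.6% (Klk4) and 25.04% (Birc7) of tested genes had a lower mean CPM than 8 of the members, and 42.5% had a lower mean than Rdh16, which at 15.5 CPM was near the median of 22.4 CPM.

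**Figure D2:**
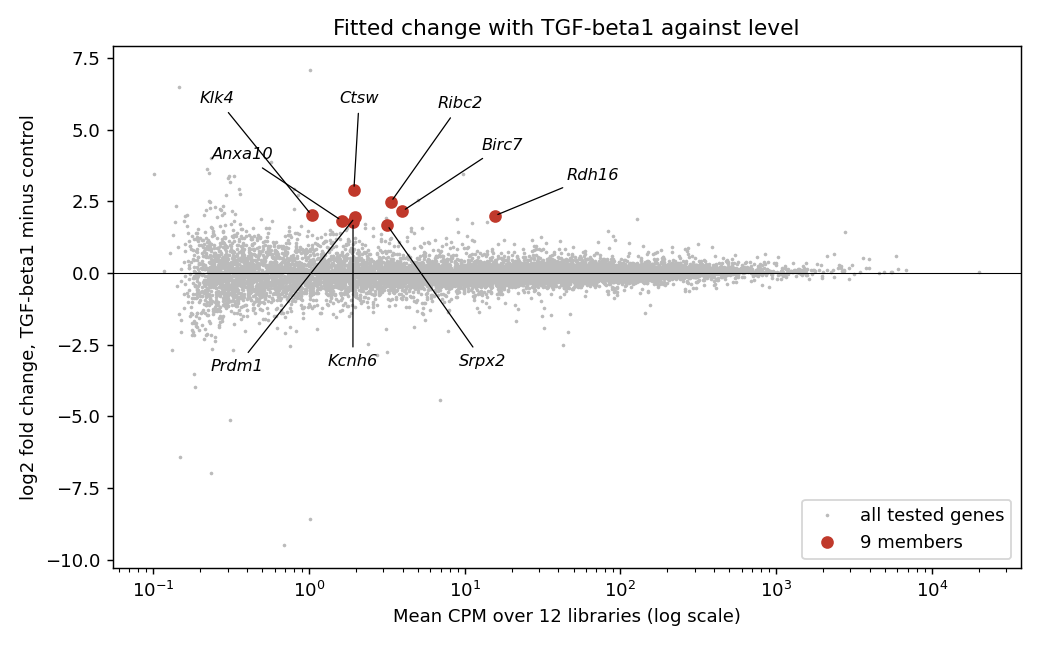
The log2 fold change of TGF-beta1 minus control cells (vertical axis) is plotted against the mean CPM over 12 libraries (horizontal log axis) for the 14184 tested genes in grey and the 9 members in red. The members lie between 1.69 and 2.90 on the vertical axis at 1.04 to 15.5 CPM.

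How far the rises persisted in EV cells was described by library. With 2D-EVs, 9 of 9 genes had all 3 libraries above all 3 control libraries, where 17.2% of tested genes did, and with 3D-EVs 9 of 9 did, where 19.4% did. In the fit across all genes 9 of 9 also passed upward against control cells with each preparation (10.5% and 12.2% of tested genes passed upward). Most genes raised by TGF-beta1 did so too: of the 1676 that passed upward in TGF-beta1 cells, 1236 passed upward with 2D-EVs and 1335 with 3D-EVs. Persistence above control cells was therefore not particular to the members. These comparisons use the 3 control libraries that chose the members, so the counts describe persistence and are no independent test. Against control cells the members stood 3.17-fold (Prdm1) to 4.86-fold (Ctsw) higher with 2D-EVs and 3.34-fold (Rdh16) to 6.04-fold (Ribc2) higher with 3D-EVs.

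The share of the rise that remained was taken as the distance of an EV library from the control mean, in percent of the distance of the TGF-beta1 mean. With 2D-EVs it was lowest for Ctsw (59.5 ± 6.34%, SD over 3 libraries), followed by Rdh16 (75.5 ± 13.6%), Prdm1 (76.4 ± 21.6%), Ribc2 (81.4 ± 9.14%) and Birc7 (84.0 ± 8.70%). Anxa10 (100.3 ± 5.24%), Srpx2 (112 ± 16.4%), Klk4 (114 ± 49.9%) and Kcnh6 (129 ± 33.7%) stood at or above the TGF-beta1 mean. With 3D-EVs the lowest shares were those of Ctsw (77.2 ± 14.4%), Rdh16 (78.3 ± 3.35%), Klk4 (83.3 ± 22.2%) and Prdm1 (87.9 ± 33.5%). Birc7 (101 ± 30.9%), Ribc2 (111 ± 21.9%), Anxa10 (111 ± 21.9%), Srpx2 (133 ± 15.7%) and Kcnh6 (153 ± 38.5%) stood above it. The median over the members was 84.0% with 2D-EVs (93.0% without TGF-beta1 replicate 1) and 101% with 3D-EVs. Over all 1676 genes raised by TGF-beta1 the medians were 85.8% and 92.7%. The TGF-beta1 libraries that chose the members, and the 1676 genes, also set the scale of these shares, and how far that choice moves them was not tested.

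**Figure D3:**
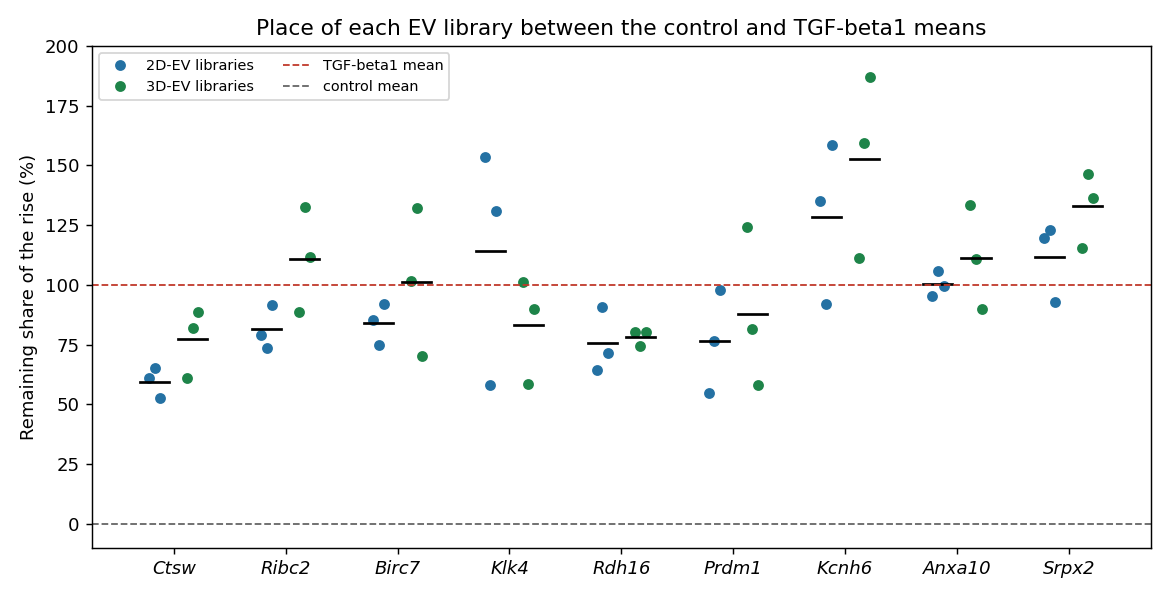
The remaining share of the rise in percent (vertical axis) is plotted for each gene, with 1 point for each 2D-EV (blue) or 3D-EV (green) library and a black line at the mean of 3. The dashed lines at 0 and 100 are the control and TGF-beta1 means; the lowest EV library of any member is one of Ctsw with 2D-EVs, which sits at 52.6 to 65.1%.

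Set directly against TGF-beta1 cells, the members stood between 0.649-fold (Ctsw) and 1.20-fold (Kcnh6) with 2D-EVs and between 0.801-fold (Ctsw) and 1.37-fold (Kcnh6) with 3D-EVs. With 2D-EVs 0 of 9 passed the threshold in edgeR (0.0282% of tested genes passed, all 4 of them lower: Ccn2, Acta2, Olr1 and Frmd4a), as with DESeq2 and limma-voom, and 2 of 9 had an unadjusted p under 0.05, as did 7.10% of all tested genes. Those were Ctsw (log2 fold change -0.62, 95% interval -1.14 to -0.11) and Rdh16 (-0.29, -0.47 to -0.11), the same 2 members whose libraries lay wholly below TGF-beta1 libraries, as 6.23% of tested genes did; 0 of 9 lay wholly above, where 6.13% did. With 3D-EVs 0 of 9 passed in edgeR, DESeq2 or limma-voom, and 0% of tested genes passed in edgeR, where 1027 (7.24%) had an unadjusted p under 0.05 and DESeq2 called 13. Rdh16 was the member with an unadjusted p under 0.05 there (-0.26, -0.44 to -0.077) and the member wholly below TGF-beta1 cells (6.83% of tested genes were). Srpx2 lay wholly above TGF-beta1 cells (0.29, -0.071 to 0.66), as 6.8% of tested genes did. Both comparisons share the TGF-beta1 libraries that chose the members, and share them with each other, so the values stand side by side without a test of the choice.

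The comparison of 3D-EV with 2D-EV cells used none of the libraries of the rise that defines the members. A floor on the mean over all libraries, EV libraries included, may still have entered the choice, and this was not tested. Between 3D-EV and 2D-EV cells 0 of 9 passed in edgeR (adjusted p from 0.716 to 0.959), 0 in DESeq2 and 0 in limma-voom. Of tested genes 0.00705% passed in edgeR (1 gene, Ccn2). An unadjusted p under 0.05 was found for 1 of the 9 and for 6.90% of all tested genes. Of the 9, 8 were higher with 3D-EVs and Klk4 was lower. Their median log2 fold change was 0.18, beside -0.00069 over all tested genes. Of the 1676 genes raised by TGF-beta1, 615 were lower with 3D-EVs than with 2D-EVs, and their median was 0.020. Genes within the same libraries are not independent. Ribc2 had the smallest p (log2 fold change 0.36, 95% interval 0.0052 to 0.72, unadjusted p = 0.0471 and adjusted p = 0.716 in edgeR's quasi-likelihood test), with 4.68 ± 0.771 against 3.64 ± 0.322 CPM. On the log2 scale the interval was narrowest for Rdh16, from a fold of 0.905 to 1.16, and widest for Klk4, from 0.501 to 1.25. Ctsw differed by 1.23-fold (0.861 to 1.76), Birc7 by 1.15-fold (0.898 to 1.48), Srpx2 by 1.13-fold (0.880 to 1.46) and Kcnh6 by 1.14-fold (0.791 to 1.65). Prdm1 (1.11-fold, 0.756 to 1.62) and Anxa10 (1.08-fold, 0.750 to 1.56) completed the list. These intervals do not show that the preparations act alike. In 0 of 9 genes were the groups without overlap, where 5.67% and 5.68% of tested genes lay wholly above and wholly below.

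**Figure D4:**
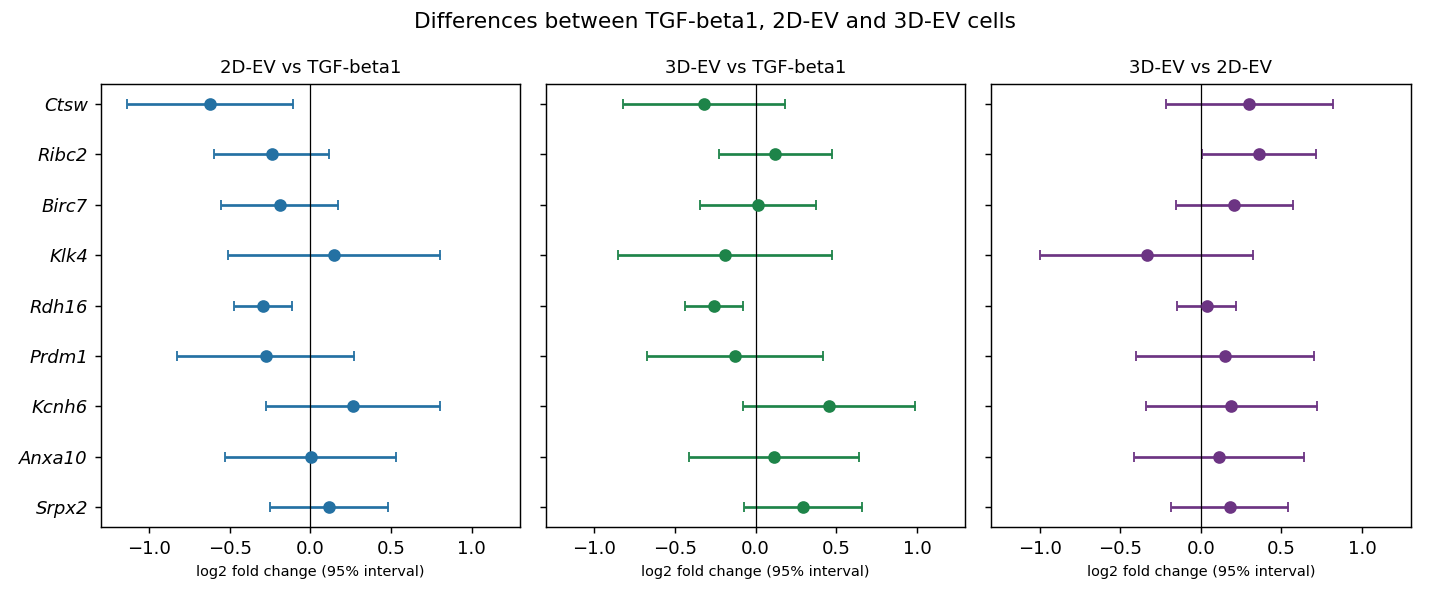
Points are log2 fold changes from the edgeR fit (horizontal axis) and bars their 95% intervals for each of the 9 genes, with 2D-EV against TGF-beta1 cells at left, 3D-EV against TGF-beta1 cells in the middle and 3D-EV against 2D-EV cells at right. Bars that miss 0 belong to Ctsw and Rdh16 at left, Rdh16 in the middle and, barely, Ribc2 at right, and none passed after adjustment over all genes.

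The relatives of each member were counted in TGF-beta1 against control cells, beside a median log2 fold change of -0.0050 over all tested genes, of which 11.8% rose and 10.2% fell. With so few genes in a list, the counts that follow are a description, and none is called particular to its list. Of 11 tested cathepsins and inhibitors, 3 rose and 1 fell, with a median of 0.014. Ctsf, another papain-like protease, rose 2.69-fold (10.9 ± 0.880 against 4.04 ± 0.0627 CPM) and Ctsb, an abundant lysosomal protease, 1.18-fold (1519 ± 40.4 against 1287 ± 25.2 CPM), while Ctso fell (12.7 ± 0.384 against 16.0 ± 0.382 CPM). Markers of cytotoxic lymphocytes, the cells for which Ctsw is known, were low: Ptprc, Cd3d, Nkg7 and Prf1 were at 0 in all 12 libraries, and 14 markers in the table summed to 0.967 to 2.22 CPM in control libraries, 0.393 to 1.13 in TGF-beta1, 0.642 to 1.86 in 2D-EV and 0.854 to 1.16 in 3D-EV libraries. Of the 2 tested, Cd2 fell (0.168 ± 0.0550 against 0.688 ± 0.324 CPM) and Cd3e did not pass.

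Of 22 listed kallikreins, inhibitors and the receptor F2rl1, 13 were at 0 in all 12 libraries, and the other kallikreins held at most 8 counts in any library. F2rl1, a receptor cut by serine proteases, was the only one tested and rose (116 ± 4.40 against 89.7 ± 3.43 CPM, log2 fold change 0.37). Of 20 tested genes of retinoid metabolism and its receptors, 3 rose and 4 fell, with a median of -0.074. Rdh11, another retinol dehydrogenase (42.8 ± 0.971 against 31.96 ± 3.29 CPM), and Cyp26b1, which degrades retinoic acid (3.71 ± 0.123 against 2.28 ± 0.473 CPM), rose. Aldh1a2, which makes retinoic acid (158 ± 8.01 against 219 ± 4.63 CPM), and Dhrs3, which reduces retinal (42.7 ± 1.13 against 62.7 ± 6.56 CPM), fell.

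Of 18 tested PR domain factors and partners of Prdm1, 3 fell and 15 did not pass, with a median of -0.078. Tle4, a Groucho corepressor (60.9 ± 0.374 against 78.5 ± 2.88 CPM), and Prdm11 (3.46 ± 0.289 against 5.22 ± 0.474 CPM) were among those that fell. Of 15 genes of the inhibitor of apoptosis family, its antagonists and caspases, 3 rose and 1 fell (median -0.068). Apaf1, the apoptosome scaffold (34.5 ± 2.27 against 28.7 ± 1.17 CPM), rose, and Birc2, a relative of Birc7, fell (36.7 ± 1.64 against 42.2 ± 2.76 CPM). Xiap stood at 19.7 and 19.5 CPM and did not pass.

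Of 17 tested genes of the ciliary axoneme, 1 rose and 1 fell (median -0.11). Dnai2, a dynein chain (5.94 ± 1.14 against 3.17 ± 0.414 CPM), rose and Cfap52, a protein inside ciliary microtubules like Ribc2 (3.74 ± 0.217 against 5.79 ± 0.452 CPM), fell. Ribc1, the closest relative by name, stood at 4.94 ± 0.789 and 4.84 ± 0.515 CPM. Of the 3 tested ether-a-go-go channels and partners, Kcnh2, the ERG channel of the heart, stood at 26.6 ± 1.38 against 30.3 ± 2.92 CPM and Kcnh3 at 0.243 ± 0.0400 against 0.668 ± 0.240 CPM, and none of the 3 passed (adjusted p = 0.127 for Kcnh2 and 0.124 for Kcnh3 in edgeR). Of 10 tested annexins 1 rose and 1 fell (median 0.079), Anxa5 (510 ± 5.56 against 472 ± 3.86 CPM) and Anxa1 (1887 ± 31.8 against 2136 ± 5.18 CPM).

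Around Srpx2, 4 of 9 tested genes of the plasminogen activators and the hepatocyte growth factor axis rose and 2 fell (median 0.21). Plaur, the urokinase receptor to which Srpx2 binds, rose 1.63-fold (136 ± 7.01 against 83.6 ± 5.17 CPM). Met, the receptor of hepatocyte growth factor (94.5 ± 3.43 against 113 ± 5.62 CPM), and Foxp2, a repressor known to act on Srpx2 (47.0 ± 0.954 against 54.7 ± 2.72 CPM), fell. Of the 105 tested genes in these lists around the members, 0 passed in edgeR with 2D-EVs against TGF-beta1 alone (11 at an unadjusted p under 0.05, or 10.5%), 0 with 3D-EVs (13, or 12.4%) and 0 between the preparations (13, or 12.4%). The shares of all tested genes at that p were 7.10%, 7.24% and 6.90% in the same order.

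Neighbouring genes could share reads with a member, since the strand handling of the counting is not given. Of the 18 genes directly before and after the members in the RefSeq order, 8 were tested, and 2 rose in TGF-beta1 cells, where 11.8% of all tested genes rose. Tspan6, next to Srpx2, rose by 0.41 on the log2 scale (276 against 207 CPM) and Atg5, next to Prdm1, by 0.24 (48.1 against 40.7 CPM). The other neighbours of members that were tested, among them Fibp and Efemp2 beside Ctsw and Ythdf1 and Nkain4 beside Birc7, did not pass. No neighbour of Ribc2, Klk4, Rdh16 or Anxa10 was tested, so nothing is shown for these members. The small nuclear RNA gene LOC120093910, which overlaps Ribc2, was not among the counted genes.

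By likeness over the 12 libraries, the genes nearest to the mean standardised profile of the members were Ggt1 (Pearson r = 0.995), PCOLCE2 (0.995), Fbln2 (0.994), Serpinb6a (0.993) and Procr (0.991). The measure is a correlation of log2(CPM + 0.5) over libraries that share depth and treatment. Ggt1, which cleaves extracellular glutathione, stood at 165 CPM in control cells and at 305, 304 and 314 CPM in TGF-beta1, 2D-EV and 3D-EV cells. Fbln2, the matrix protein fibulin-2, stood at 44.2, 164, 149 and 152 CPM in the same order. Each member correlated with the mean of the other 8 by 0.889 (Klk4) to 0.982 (Birc7) over the 12 libraries. The choice of all members by their rise over control cells makes such correlations high, so nothing is read from them. Within groups, after the group means were taken out, the 36 pairs of members correlated by -0.52 to 0.67 with a median of -0.060, from negative for Ribc2 with Anxa10 to positive for Ribc2 with Kcnh6.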

How the data were processed

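Whole-number counts for each gene were deposited by the authors without normalization, and the 12 deposited tables of single libraries were identical to the joint table (0 columns left unused). The submitters' processing notes name the build mRatBN7.2 and, without versions, DESeq2, StringTie, HISAT2 and fastp. The sources used here do not give counting settings, strand handling or annotation. The value 1 filled 1514 cells and the value 2 filled 5687, so that a count of 1 was rarer than a count of 2.

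From the counts, edgeR 4.0.16 in R 4.3.3 was run on 14184 genes kept by filterByExpr (minimum count 10), with TMM factors (0.983 to 1.03), a single fit of 4 group means over 12 libraries, quasi-likelihood F-tests and Benjamini-Hochberg adjustment over all tested genes at 0.05. Intervals are 95% intervals of that fit. DESeq2 1.42.0, limma 3.58.1 (voom), other scaling and filters, a replicate block and leaving out each library were the alternatives. Libraries with the same number were not paired (residual correlations of 18 such pairs -0.067 to 0.045). The labels give no batch.

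The members and lists were chosen with earlier results of these data known. Per list, up to 2 genes that rose and 2 that fell were named by the smallest p, or 2 given as values where none passed; Xiap and Ribc1 were added after their values were seen, and 2 genes that this rule names are not reported here. Nonmembers at the edge were those ranked between or directly below the members by log2 fold change, the 5 genes of like pattern those with the highest correlation, and neighbours the genes directly before and after each member. Names and gene order came from RefSeq (GRCr8, all 9 members matched), a build other than that of the counts.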

Additional observations from a re-analysis of the deposited data

How the results depend on the processing

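All 9 members stayed above the threshold against control cells, with TGF-beta1 alone and with either EV preparation, under every alternative run, and none passed between EV and TGF-beta1 cells or between the preparations under any of them. The number of genes passing over the whole table did depend on the choices. In TGF-beta1 against control cells 1676 rose and 1448 fell, and 1550 rose and 1308 fell with the replicate block. With a library left out, 2419 to 2555 passed there in either direction. Against control cells 1489 rose and 1153 fell with 2D-EVs (2006 to 2311 in either direction with a library left out). With 3D-EVs 1731 rose and 1531 fell (2408 to 2679). In 2D-EV against TGF-beta1 cells 4 genes passed, 56 with DESeq2, 9 with limma-voom, 14 without a filter, 7 with only the 2 groups compared, and 1 to 3 with a library left out (1 without 2D-EV replicate 1 or 2, 2 without TGF-beta1 replicate 2 or 2D-EV replicate 3). In 3D-EV against TGF-beta1 cells 0 passed, 13 with DESeq2, and 0 to 2 with a library left out (1 without TGF-beta1 replicate 2, 2 without 3D-EV replicate 3). Between the preparations 1 passed, 19 with DESeq2, 2 with limma-voom, 8 without a filter, 2 with only the 2 groups, 2 with the replicate block, and 1 to 3 with a library left out (3 without 3D-EV replicate 3). The replicate block changed no call of a member. The cause of these differences was not tested, save that fewer libraries enter when one is left out. Members whose libraries did not overlap numbered 2 in 2D-EV against TGF-beta1 cells and 2 to 5 with a library left out (4 without TGF-beta1 replicate 2, 5 without 2D-EV replicate 3). In 3D-EV against TGF-beta1 cells they numbered 2, and 2 to 4 (4 without TGF-beta1 replicate 2 or 3D-EV replicate 1). Between the preparations they numbered 0, and 0 to 4 (4 without 3D-EV replicate 1, 3 without 2D-EV replicate 2, 2 without 3D-EV replicate 3, 1 without 2D-EV replicate 3). The median remaining share ranged from 78.9 to 93.0% with 2D-EVs (93.0% without TGF-beta1 replicate 1) and from 95.1 to 111% with 3D-EVs. Small differences turned with single libraries, none of them past the threshold. Against TGF-beta1 cells the log2 fold change with 2D-EVs ranged from -0.066 to 0.40 for Klk4 (below 0 without TGF-beta1 replicate 2 or 2D-EV replicate 1) and from -0.092 to 0.17 for Anxa10 (below 0 without TGF-beta1 replicate 1 or 3, or 2D-EV replicate 2). With 3D-EVs it ranged from -0.00060 to 0.24 for Ribc2 (below 0 without 3D-EV replicate 2), from -0.16 to 0.18 for Birc7 (below 0 without TGF-beta1 replicate 2 or 3, or 3D-EV replicate 2), from -0.35 to 0.055 for Klk4 (above 0 without TGF-beta1 replicate 1) and from -0.36 to 0.072 for Prdm1 (above 0 without TGF-beta1 replicate 1 or 3D-EV replicate 3). Between the preparations it ranged from -0.034 to 0.14 for Rdh16 (below 0 without 2D-EV replicate 1), from -0.085 to 0.31 for Prdm1 and from -0.00022 to 0.21 for Anxa10 (both below 0 without 3D-EV replicate 1). Depth limits Klk4, Ctsw and Anxa10 most, with 8 to 28 counts per control library.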
